A study of Mus musculus with 8 samples.

Results

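Of 6327 genes bright enough to be compared before LPS and after 6 h and 24 h of it, 35 (0.553%) stood at least 2-fold below wild type in CD14-deficient macrophages at all 3 times, and 7 (0.111%) stood at least 2-fold above. Described here are 8 of the 35, Rpgrip1, Erdr1, Wdfy1, Ghitm, Esco1, Dcp1a, Ngdn and Cadps, and 2 of the 7, Gdf3 and Arap3. These 10 genes, of 12394 with a probe set of their own on the array, were chosen on these arrays because the difference between the genotypes ran the same way at all 3 times. Their differences between CD14-deficient and wild-type cells are therefore a description and not a test. All 21 probe sets that the platform annotation gives to the 10 genes were read, of 22690 on the array. A probe set is the group of short probes that reports 1 transcript region.

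The cells were macrophages grown from mouse bone marrow for 7 days in 10% serum with M-CSF, the growth factor that directs marrow cells to this lineage. Mice of both genotypes were 6 to 8 weeks old. Wild-type mice were C57BL/6, and CD14-deficient cells came from Cd14-/- mice labelled as C57BL/6 as well. The sources used here do not say how that allele was made and backcrossed, so loss of CD14 and any other difference between the mouse lines cannot be told apart. The 8 groups, 1 array each, were wild type without stimulus (0 h, harvested 24 h after plating), wild type with smooth LPS for 6 h or 24 h, wild type with LPS and EGTA for 6 h or 24 h, and CD14-deficient without stimulus or with LPS for 6 h or 24 h. LPS, a component of the bacterial outer membrane, was used at 1 µg/ml. EGTA, which chelates calcium outside the cell, was at 2 mM per the 24 h label; the 6 h label gives no concentration. The design was meant to set effects of CD14 that run through calcium apart from other effects of losing CD14. Each group had 1 array, so no difference below has a replicate check, and the number of arrays limits the precision.

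CD14 is a surface protein that passes LPS to the TLR4 receptor complex and helps carry the complex into endosomes, where signalling continues through the adaptor TRIF. The 10 genes do not belong to 1 pathway. They include an endosomal protein linked to TRIF (Wdfy1), secreted proteins (Gdf3, Erdr1), factors of mRNA decapping and ribosome assembly (Dcp1a, Ngdn), a cohesin enzyme (Esco1) and proteins of mitochondria, vesicles, small GTPase control and the photoreceptor cilium (Ghitm, Cadps, Arap3, Rpgrip1).

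Cd14 itself was at the floor on all 3 CD14-deficient arrays, at least 100.3-fold below wild type at 0 h; the sources used here do not say whether its probes lie in the deleted part. The floor is an intensity of 38.4, to which dimmer values were raised. Macrophage markers were bright on every array. Csf1r, the M-CSF receptor, ran from 7245 to 11646. The summed intensity of the 8 measured markers other than Cd14 ran from 53417 to 63983 in wild type. In CD14-deficient cells the sum ran from 57563 to 67772. Of these 8, only Fcgr1 passed 2-fold, at 0 h, with 2833 in CD14-deficient and 6842 in wild-type cells. Its log2 differences, CD14-deficient minus wild type, were -1.27, -0.54 and -0.55 at 0, 6 and 24 h. All 6 measured B cell markers were at the floor on every array, as were 5 of 6 of T and NK cells, 6 of 7 of dendritic cells, 3 of 4 of erythroid cells, 5 of 6 of mast cells and basophils, 4 of 8 of stromal and endothelial cells and 5 of 11 of neutrophils and promyelocytes. The neutrophil and promyelocyte sum read 1002, 515 and 876 at 0, 6 and 24 h in wild type, 550.2 and 915 with EGTA, and 802, 707 and 1159 in CD14-deficient cells, lower than wild type at 0 h and higher at 6 h and 24 h. Within that list S100a8 and Mmp9 were at least 2-fold higher in CD14-deficient cells at 6 h (1.24 and at least 1.71), the only 2 compared, and Camp and Mmp9 at 24 h, 2 of 4 compared, while Prtn3, Ctsg, Ltf, Ngp and S100a9 were at the floor on all arrays; their part in the results was not tested. In bulk RNA, fewer cells of a type and less RNA per cell cannot be told apart. The RNA integrity number was 9.7 for all 3 CD14-deficient samples and 9.3 to 9.7 for the 5 wild-type samples; its part in the results was not tested.

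Intensities are normalized over the 8 arrays and given in the order 0 h, 6 h and 24 h of LPS. A difference is the log2 value of CD14-deficient minus wild type unless another pair is named, and "at least" marks a difference with 1 array at the floor. Where a gene had several probe sets, the brightest is given first. A suffix of _x_at or _s_at in a probe set's name says that its probes may also match other genes or transcripts. The 10 genes were taken from the 42 that were past 2-fold at all 3 times, so nothing is read from their own share.

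Wdfy1 encodes a phosphoinositide-binding protein of early endosomes that recruits TRIF to TLR3 and TLR4. Its brightest probe set, 1437358_at, read 633, 613 and 950.0 in wild type, 595 and 884 in wild type with EGTA at 6 h and 24 h, and 51.4, 73.9 and 74.6 in CD14-deficient cells. The 3 CD14-deficient arrays lay far below all 5 wild-type arrays, and within wild type the 24 h arrays, with and without EGTA, were the brightest. Wdfy1 was 12.3-fold, 8.30-fold and 12.7-fold lower in CD14-deficient cells at 0, 6 and 24 h, log2 differences of -3.62, -3.05 and -3.67. The other 2 probe sets of the gene pointed the same way. Probe set 1424749_at read 354, 483 and 909 in wild type, 483 and 758 with EGTA, and 39.6, 108 and 83.1 in CD14-deficient cells, differences of -3.16, -2.16 and -3.45. For 1453426_a_at the values were 101, 136 and 238 in wild type, 177 and 214 with EGTA, and at the floor, 58.8 and at the floor in CD14-deficient cells, which makes the 0 h and 24 h differences bounds. No CD14-deficient array reached a wild-type array on any of the 3 Wdfy1 probe sets.

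Gdf3, a ligand of the TGF-beta family that is related to Nodal, was the gene furthest above wild type. It read 122, 94.7 and 114 in wild type, 77.9 and 119 with EGTA, and 1125, 784 and 606 in CD14-deficient cells. Every CD14-deficient array was above every wild-type array, the dimmest of the former 4.95-fold above the brightest of the latter. Gdf3 was 9.19-fold higher at 0 h, 8.29-fold at 6 h and 5.30-fold at 24 h. The CD14-deficient level was lower after LPS than before it, by 0.52 on the log2 scale at 6 h and 0.89 at 24 h, which narrowed the gap. The gene had 1 probe set, 1449288_at, so no second one was at hand to set beside it.

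Erdr1, named for erythroid differentiation, also encodes a secreted protein. Its only probe set, 1452406_x_at, read 2038, 2210.1 and 1201 in wild type, 2286 and 1561 with EGTA, and 196, 193 and 127 in CD14-deficient cells. All 3 CD14-deficient values were below all 5 wild-type values, and both genotypes were dimmest after 24 h of LPS. The difference was 10.4-fold at 0 h, 11.4-fold at 6 h and 9.48-fold at 24 h, each time with the CD14-deficient array lower. The RefSeq table places Erdr1 on chromosome X. Xist, the transcript of the inactive X chromosome, read from 2306 to 4224 over the 8 arrays, and the Y-linked genes Eif2s3y, Kdm5d and Uty were at the floor on all of them.

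Dcp1a encodes the activating partner of the mRNA decapping enzyme Dcp2. Probe set 1433606_at read 249, 568 and 357 in wild type, 564 and 273 with EGTA, and 80.1, 162 and 82.1 in CD14-deficient cells. The 6 h arrays were the brightest in both genotypes, and even the brightest CD14-deficient array, at 6 h, was below the dimmest wild-type array, by 1.54-fold. At matched times Dcp1a was 3.11-fold, 3.50-fold and 4.35-fold lower in CD14-deficient cells. On 1422131_at the wild-type arrays read 62.6, 139 and 86.2, those with EGTA 105 and 103, and the CD14-deficient arrays were at the floor, 47.5 and at the floor, again without overlap. The third probe set, 1431933_a_at, was at the floor on all 3 CD14-deficient arrays and on 2 wild-type arrays, at 0 h and 24 h, and read 42.2 to 65.2 on the others.

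Ngdn encodes neuroguidin, which binds the cap-binding protein eIF4E and is part of the complex that assembles the small ribosomal subunit. Probe set 1438318_x_at read 1233, 1254 and 1129 in wild type, 967 and 1259 with EGTA, and 413, 419.9 and 439.6 in CD14-deficient cells. The CD14-deficient arrays differed little from each other and lay below all wild-type arrays. The fold was 2.99 at 0 h, 2.99 at 6 h and 2.57 at 24 h. The other probe set showed much less: 1428226_at read 537, 496 and 495 in wild type, 485 and 616 with EGTA, and 346, 433 and 437 in CD14-deficient cells. Its groups did not overlap either, but only 1.11-fold separated the brightest CD14-deficient from the dimmest wild-type array, and its differences were -0.64, -0.20 and -0.18.

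Esco1 encodes an acetyltransferase that acts on the cohesin subunit Smc3 and so stabilizes the hold of cohesin on chromatin. Probe set 1424324_at read 548, 618 and 539 in wild type, 590.3 and 609 with EGTA, and 148, 185 and 164 in CD14-deficient cells. The level was nearly flat over time within a genotype, and the genotypes stood 3.72-fold, 3.34-fold and 3.28-fold apart. The second probe set, 1424325_at, did not show this. It read 93.9, 96.8 and 60.5 in wild type, 84.7 and 72.6 with EGTA, and 90.5, 108 and 85.9 in CD14-deficient cells, so the genotypes overlapped and the differences were -0.05, 0.16 and 0.51. For Esco1 the call thus rests on 1 of 2 probe sets.

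Ghitm encodes a protein of the inner mitochondrial membrane, of the same family as the Bax inhibitor Tmbim6. Probe set 1415882_at read 3707, 4842 and 5269.7 in wild type, 5331 and 5159 with EGTA, and 1057, 1291 and 1218 in CD14-deficient cells. The unstimulated array was the dimmest in each genotype, and the genotypes did not overlap. Ghitm was 3.51-fold, 3.75-fold and 4.33-fold lower in CD14-deficient cells. On 1415881_at the gap was smaller: 1949.7, 2389 and 2706 in wild type, 2693 and 2927 with EGTA, and 1035, 1164 and 1145 in CD14-deficient cells. That probe set also kept the groups apart, with differences of -0.91, -1.04 and -1.24, the first of them short of 2-fold.

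Cadps encodes a priming factor for the exocytosis of dense-core vesicles, best known from neurons and endocrine cells. Its only probe set, 1448955_s_at, read 167, 143 and 373 in wild type, 157 and 395 with EGTA, and was at the floor on all 3 CD14-deficient arrays. Both wild-type arrays at 24 h of LPS, with and without EGTA, were brighter than the 3 at earlier times. CD14-deficient cells were at least 4.36-fold, 3.74-fold and 9.72-fold lower at 0, 6 and 24 h. The wider bound at 24 h comes from the wild-type side alone, since the CD14-deficient value was at the floor throughout.

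Rpgrip1 encodes a scaffold of the photoreceptor connecting cilium that binds the retinitis pigmentosa GTPase regulator. Probe set 1421144_at read 1607, 1313 and 1226 in wild type, 1400.0 and 1107 with EGTA, and 45.0, at the floor and at the floor in CD14-deficient cells. The 5 wild-type arrays were all bright and the 3 CD14-deficient arrays all at or near the floor, with 24.6-fold between the nearest of them. This was the largest difference among the 10 genes: 35.7-fold at 0 h, at least 34.2-fold at 6 h and at least 32.0-fold at 24 h. The other 3 Rpgrip1 probe sets, 1431357_a_at, 1451785_at and 1454231_a_at, were at the floor on all 8 arrays, wild type included. The signal of Rpgrip1 in these macrophages was therefore seen by 1 of 4 probe sets.

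Arap3 encodes a GTPase-activating protein for Arf6 and RhoA that phosphoinositide 3-kinase products recruit to the membrane. Probe set 1419833_s_at read 157, 124 and at the floor in wild type, 95.0 and at the floor with EGTA, and 366, 319 and 115 in CD14-deficient cells. At each time the CD14-deficient array was the brighter one, but across times the groups overlapped, since the CD14-deficient array at 24 h was below the wild-type arrays at 0 h and 6 h. The excess was 2.33-fold at 0 h, 2.57-fold at 6 h and at least 3.00-fold at 24 h. The second probe set, 1451282_at, was dim: 44.2 and then the floor on the other 4 wild-type arrays, and 72.6, 55.8 and the floor in CD14-deficient cells.

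**Figure D1:**
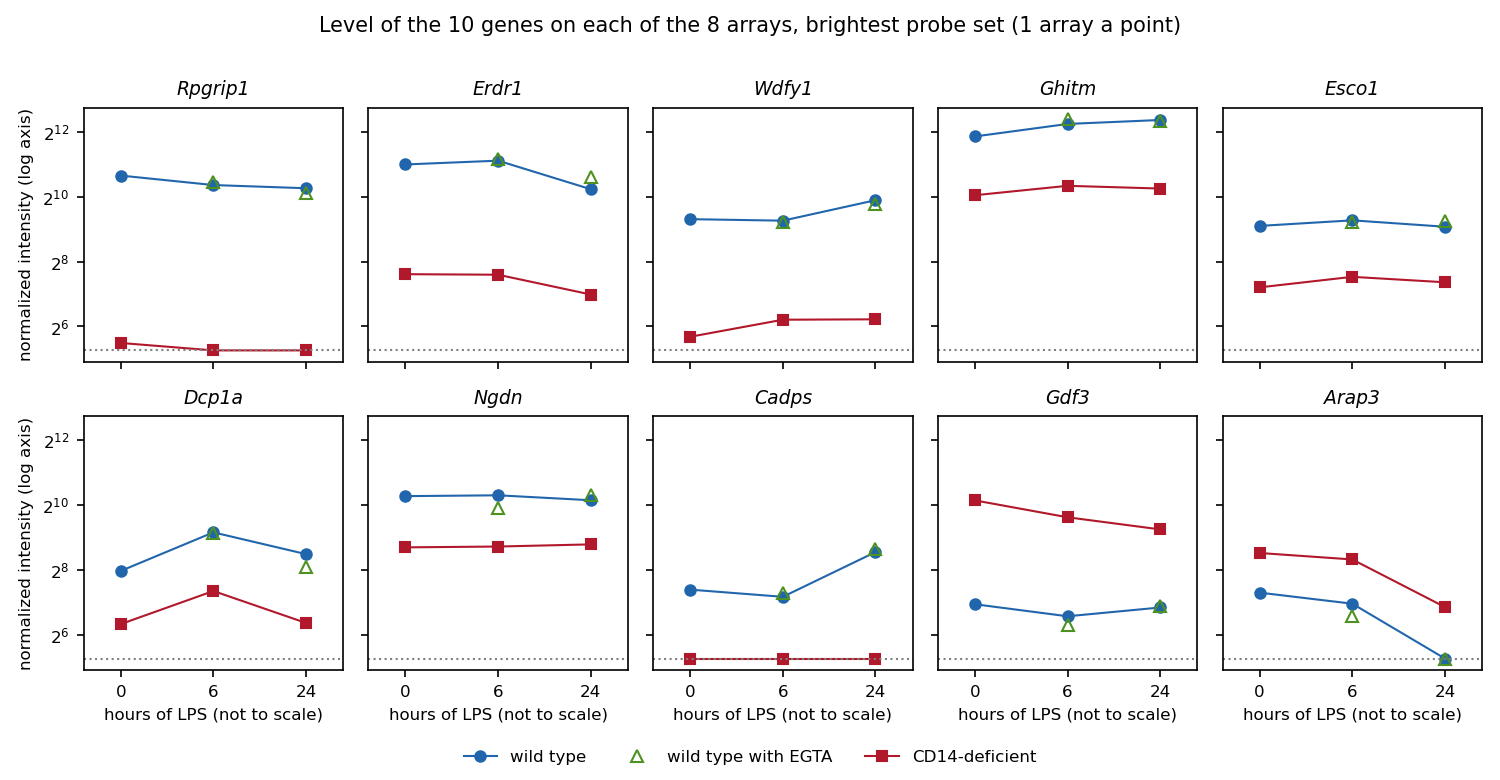
Normalized intensity (log axis) of the brightest probe set of each of the 10 genes at 0, 6 and 24 h of LPS; each point is 1 array, lines join arrays of a genotype, triangles are wild-type arrays with EGTA, and the dotted line is the floor of 38.4. The red squares of CD14-deficient cells lie below the wild-type points for 8 genes and above them for Gdf3 and, at matched times, for Arap3.

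Of the 21 probe sets, 3 were at the floor on all arrays, 15 had a difference of the same sign at all 3 times, and 12 were at least 2-fold apart each time. Of the 7 genes with over 1 probe set, Wdfy1 was the only one whose probe sets were all past 2-fold at all 3 times. Ghitm and Ngdn kept the direction on both probe sets with a smaller size on the dimmer one. Esco1 had a measured probe set without the difference. The other 3 of Rpgrip1 were at the floor on all arrays and could show none. Those of Dcp1a and Arap3 beyond the brightest were at the floor on at least 1 CD14-deficient array, as was 1453426_a_at of Wdfy1. Among those of Dcp1a and Arap3, 1422131_at of Dcp1a kept the direction at all 3 times. Where each probe set lies in its gene was not read here, and what sets them apart was not tested.

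**Figure D2:**
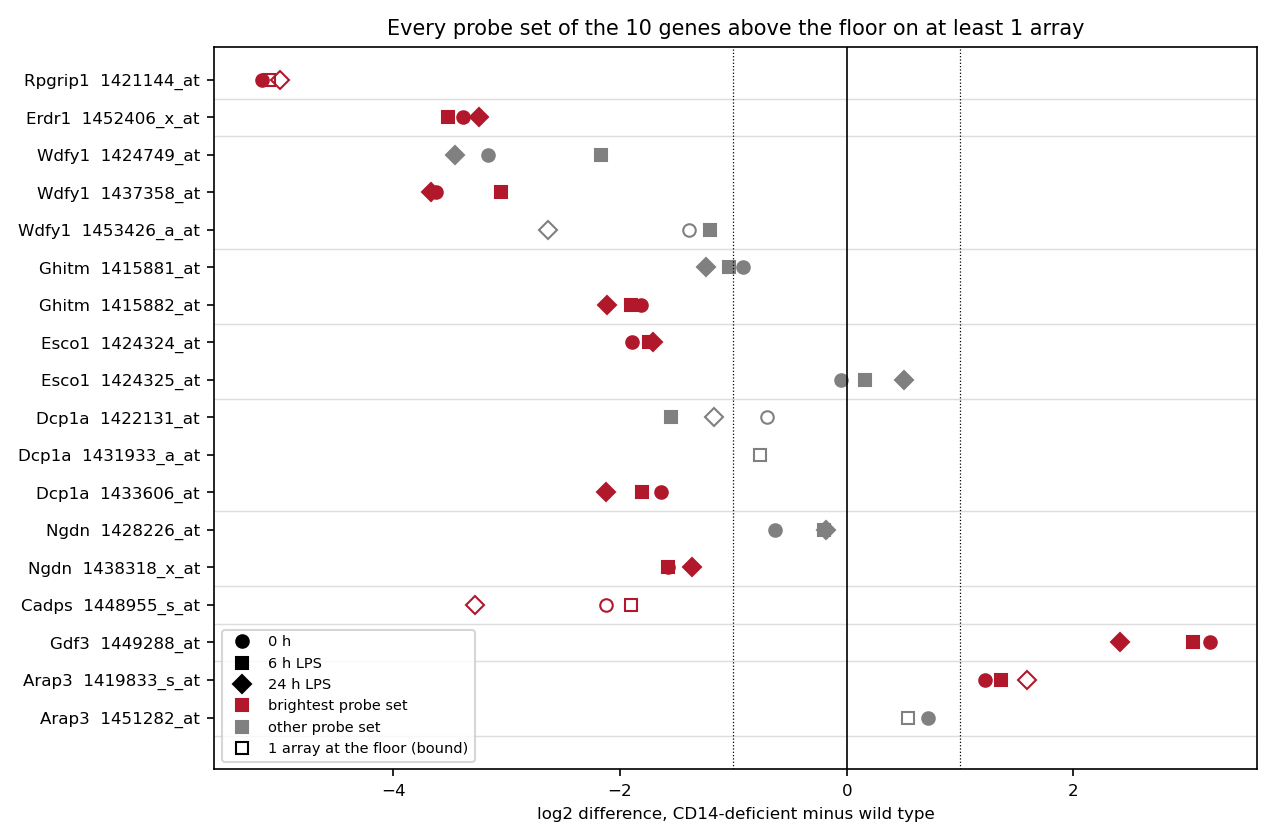
Log2 difference, CD14-deficient minus wild type, at 0 h (circles), 6 h (squares) and 24 h (diamonds) for the 18 probe sets above the floor on at least 1 array; red marks the brightest probe set of a gene, open symbols are bounds, pairs with both arrays at the floor are not drawn, and dotted lines mark 2-fold. The 3 Wdfy1 probe sets all lie left of the 2-fold line, while 1424325_at of Esco1 lies near 0.

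The 10 genes differed among themselves in how steady the difference was. For the 8 lower genes, the range of the 3 log2 differences ran from 0.16 for Rpgrip1 to 1.38 for Cadps, with a median of 0.29, and 6 of the 8 were under 0.5. Steadiness over the 3 times was part of how the genes were chosen, so these ranges are a description. Floor values enter these ranges, so the small range of Rpgrip1 is that of its wild-type levels and 1 CD14-deficient value. At a level 2-fold or more below wild type were 217 of 6782 genes (3.20%) at 0 h, 208 of 6761 (3.08%) at 6 h and 425 of 6846 (6.21%) at 24 h, and 2-fold or more above it were 95 (1.40%), 171 (2.53%) and 357 (5.21%). The 10 genes were past 2-fold at each time by the way they were chosen, and these shares are given as the scale of what 1 pair of arrays shows.

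Among genes not in the set, those most like the lower members, ranked by the smallest of the 3 differences, were Cd14, Cd86 (-3.31, -2.68 and -3.08), Gbp8 (-2.66, -2.84 and -2.69), Ccl8, Gadd45g, Ccnd2, Pou3f1, Lipg, Fgl2 and Il18bp. Cd86 encodes a costimulatory ligand and Gbp8 an interferon-induced GTPase, and unlike most members both were brighter after LPS in each genotype. Most like the higher members were Stard4 (1.37, 1.60 and 2.16), which carries cholesterol, Egln3, Paip1, Fasn, Adi1, Pik3cg, Nab2, Slc7a7, Stac2 and Supt16. At the weak end of the set, Ngdn had a smallest difference of 1.36, between 1.37 for Il18bp and 1.34 for Epsti1, neither of them a member. Arap3, at 1.22, stood next to Egln3 at 1.25 and Paip1 at 1.24 among the higher genes. The set is thus a selection from a graded series and has no gap at its edge.

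The wild-type arrays with EGTA played no part in how the genes were chosen, although the CD14-deficient arrays set against them did. Levels of the 10 genes with EGTA were also close to those with LPS alone, as given below. The choice of genes thus fixed most of the comparison that follows, which is a description. CD14-deficient levels were at least 2-fold below wild type with EGTA at both 6 h and 24 h for all 8 lower genes, beside 149 of 6564 genes overall (2.27%), and at least 2-fold above it for Gdf3 and Arap3, beside 71 (1.08%). Rpgrip1 was at least 36.5-fold and at least 28.9-fold lower than with EGTA, Erdr1 11.8-fold and 12.3-fold, and Wdfy1 8.05-fold and 11.8-fold. Gdf3 was 10.1-fold and 5.11-fold higher. The smallest was Ngdn, 2.30-fold lower at 6 h, where its EGTA array was the dimmest of the wild-type arrays.

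After normalization, the brightest probe sets of the 10 genes with EGTA stayed within 1.31-fold of wild type given LPS alone, where a value could be read. At 6 h the 10 log2 differences, EGTA minus wild type with LPS alone, ran from -0.38 to 0.14 with a median of -0.03, and none was past 2-fold, beside 55 of 6740 genes (0.816%). At 24 h the 9 that could be compared ran from -0.39, for Dcp1a, to 0.38, for Erdr1, and again none was past 2-fold, beside 144 of 6754 (2.13%). Arap3 was at the floor on both 24 h arrays and gave no value. Counts of 0 of 10 and 0 of 9 are near these shares and are no result about the 10 genes as a group. Without normalization 12 of the 19 differences kept their sign and 3 passed 2-fold, beside a median of all genes at 6 h of -0.78. No array held EGTA without LPS.

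Over all 8 arrays, the 3 CD14-deficient values lay below all 5 wild-type values for the 8 lower genes, beside 188 of 7292 genes (2.58%), and above them for Gdf3, beside 177 (2.43%). Without normalization between arrays these backgrounds were 59 and 103 genes, while 9 of the 10 members again did not overlap. Arap3 overlapped. With a gap of at least 2-fold between the nearest arrays the background was 9 genes below (0.123%) and 2 above (0.0274%). The 9 were Rpgrip1, Erdr1, Wdfy1, Ghitm, Esco1, Ngdn and Cadps with Cd14 and Rgcc, and the 2 were Gdf3 and Egln3. The choice of genes fixed most of this, since 6 of the 8 arrays were those the choice rested on.

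Within a genotype, few of the 10 genes changed 2-fold with LPS on their brightest probe sets. In wild type at 6 h, Dcp1a was 2.28-fold higher and no member was 2-fold lower, beside 727 of 6936 genes higher (10.5%) and 659 lower (9.50%). At 24 h Cadps was 2.23-fold higher and Arap3 at least 4.09-fold lower, beside 740 of 6965 genes higher (10.6%) and 742 lower (10.7%). In CD14-deficient cells, 7 members were bright enough at 6 h, and of these Dcp1a was 2.03-fold higher, beside 714 of 6929 genes higher (10.3%) and 623 lower (8.99%). Of 6 at 24 h, Arap3 was 3.17-fold lower, beside 573 of 6908 genes higher (8.29%) and 606 lower (8.77%). With 1 gene in a direction at most, these shares are near the background and are no result about the 10 genes as a group.

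Dcp1a and Arap3 thus had LPS responses of the same direction in both genotypes on top of a shifted level. The 6 h difference of Dcp1a was 1.19 in wild type and 1.02 in CD14-deficient cells. At 24 h Dcp1a stood 0.52 above its unstimulated level in wild type and 0.04 in CD14-deficient cells, with both CD14-deficient arrays too dim to count as compared. Erdr1 was lower after 24 h in both, by 0.76 and 0.63 on the log2 scale. Cadps was the member whose wild-type increase had no counterpart, its CD14-deficient arrays being at the floor before and after LPS. On its brightest probe set Wdfy1 was higher after 24 h by 0.58 in wild type and by 0.54 in CD14-deficient cells, the latter on dim arrays. Its other probe sets passed 2-fold in wild type at 24 h, 1424749_at by 1.36 and 1453426_a_at by 1.24. In CD14-deficient cells 1424749_at was higher by 1.45 at 6 h and, on dim arrays, by 1.07 at 24 h. There 1453426_a_at was at the floor at 0 h and 24 h. Whether any response differed between the genotypes was not tested.

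**Figure D3:**
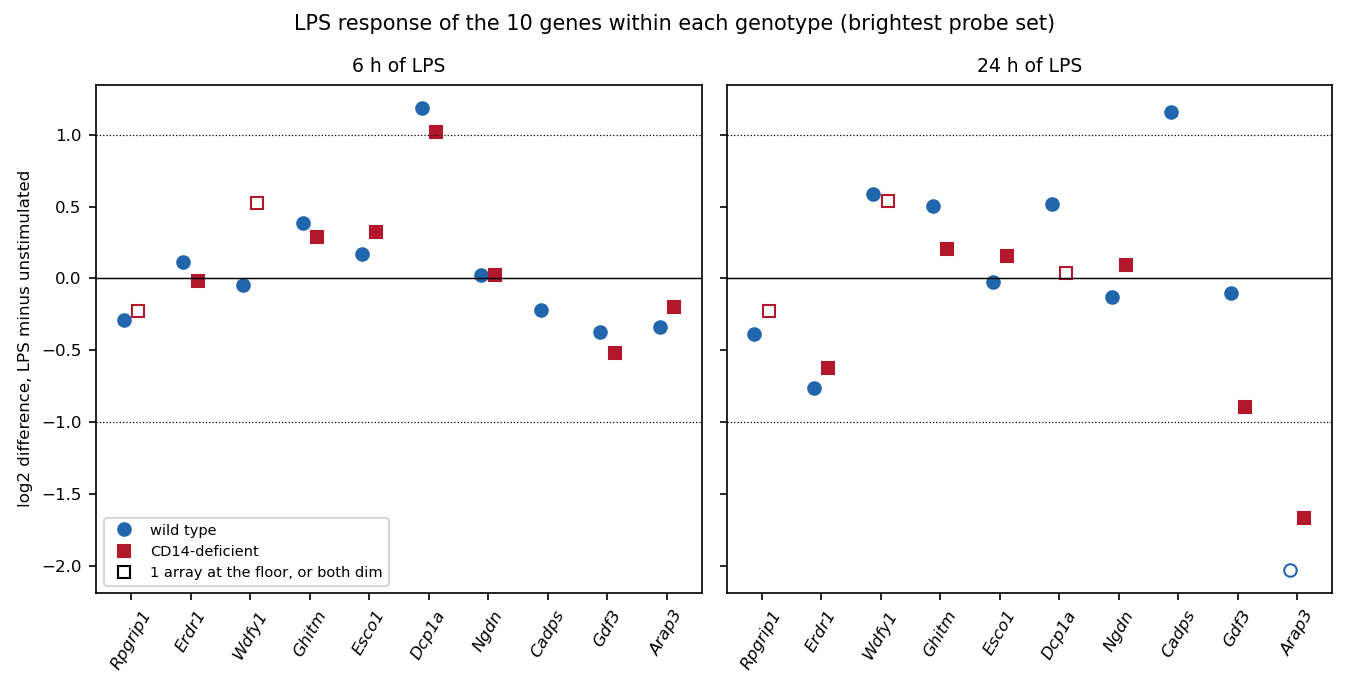
Log2 difference of LPS minus unstimulated for the brightest probe set of each gene at 6 h (left) and 24 h (right), wild type in blue circles and CD14-deficient in red squares, 1 pair of arrays a point; open symbols have 1 array at the floor or both dim, and pairs at the floor are not drawn. Dcp1a lies near 1 in both genotypes at 6 h and Arap3 lies lowest in both at 24 h, while Cadps has a wild-type point only.

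Position in the genome was not used to choose the genes. By RefSeq's placement of genes on GRCm38.p6, 5 of the 10, Cadps, Dcp1a, Ghitm, Rpgrip1 and Ngdn, lie on chromosome 14, in that order. They are not neighbours: among genes with a probe set, 66 lie between Cadps and Dcp1a, 50 between Dcp1a and Ghitm, 54 between Ghitm and Rpgrip1 and 34 between Rpgrip1 and Ngdn, of 437 on the chromosome. Promoter windows of the same assembly were read for these 5 of the 10 genes only, so nothing is said of the promoters of the others. The 250 bases before the annotated start are shown for the 4 with a single annotated start, so that the sequence upstream of genes that were low together can be set side by side. Capitals mark matches on either strand to TATAAA (the TATA box), CCAAT (the CCAAT box), GGGCGG (the GC box), CACGTG (the E-box), TGACGTCA (the cyclic AMP element), GGAAA (the core bound by NFAT), GAAANNGAA (the paired element of interferon responses), GGGANTTTC (the NF-kB site) and GAGGAAGT (the PU.1 site). Where matches adjoin, their capitals run together.
Rpgrip1, chr14:52110653-52110902, plus strand: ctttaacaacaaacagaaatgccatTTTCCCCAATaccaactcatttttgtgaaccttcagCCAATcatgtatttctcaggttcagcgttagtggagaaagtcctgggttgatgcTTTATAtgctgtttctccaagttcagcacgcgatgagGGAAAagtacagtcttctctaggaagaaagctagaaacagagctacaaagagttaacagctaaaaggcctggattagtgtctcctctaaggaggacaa
Ngdn, chr14:55015204-55015453, plus strand: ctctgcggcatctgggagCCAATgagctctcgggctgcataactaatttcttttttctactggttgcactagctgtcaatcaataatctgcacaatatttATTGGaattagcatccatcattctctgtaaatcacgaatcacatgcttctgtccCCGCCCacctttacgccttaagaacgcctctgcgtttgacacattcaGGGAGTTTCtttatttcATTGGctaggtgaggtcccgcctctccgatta
Dcp1a, chr14:30479315-30479564, plus strand: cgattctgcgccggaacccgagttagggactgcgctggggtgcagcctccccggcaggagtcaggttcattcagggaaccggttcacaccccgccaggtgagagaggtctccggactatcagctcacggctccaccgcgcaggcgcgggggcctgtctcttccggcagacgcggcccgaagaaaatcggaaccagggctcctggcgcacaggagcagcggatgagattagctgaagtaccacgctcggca
Cadps, chr14:12823080-12823329, minus strand: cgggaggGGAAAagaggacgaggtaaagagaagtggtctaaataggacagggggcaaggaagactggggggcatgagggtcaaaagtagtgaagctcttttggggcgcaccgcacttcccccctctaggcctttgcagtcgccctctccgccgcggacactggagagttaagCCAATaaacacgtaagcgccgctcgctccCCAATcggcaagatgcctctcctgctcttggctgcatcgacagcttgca

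No motif of the 9 was in all 4 windows. The Rpgrip1 window, upstream of the gene with the largest difference, held TATAAA 1 time, CCAAT 2 times and GGAAA 2 times. Ngdn had CCAAT 3 times, GGGCGG 1 time and GGGANTTTC 1 time, Cadps had CCAAT 2 times and GGAAA 1 time, and Dcp1a had none of the 9. Of 32851 mouse promoter windows of the same length, 12.4% held TATAAA, 33.8% CCAAT, 32.7% GGGCGG, 55.6% GGAAA and 0.941% GGGANTTTC, so most of these letters are common. The shares for the letters found in none of the 4 were 6.02% for CACGTG, 1.55% for TGACGTCA, 7.13% for GAAANNGAA and 2.44% for GAGGAAGT. Letters that match are not shown to be sites, and the arrays measured transcripts, not binding.

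Among genes compared at all 3 times, 6 of 217 on chromosome 14 (2.76%) were past 2-fold in 1 direction each time, all lower: the 5 members and Epsti1, an interferon-induced gene. Over all chromosomes the share was 42 of 6327 (0.664%). Without the members and Cd14 it was 1 of 212 (0.472%) on chromosome 14 and 31 of 6316 (0.491%) overall. With 1.5-fold in place of 2-fold, the remaining genes of chromosome 14 gave 11 (5.19%), beside 129 (2.04%) overall. Of the 6 genes past 2-fold on chromosome 14, 5 were thus members, while at 1.5-fold other genes added to its share. Rgcc, named above, also lies on chromosome 14 but was too dim to compare at every time. Its mean difference over the 3 times was -2.58, and it is left out of these counts. These counts are a description; no test of position was made.

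Esco1 and Arap3 lie on chromosome 18, as does Cd14, with 98 and 36 genes with a probe set between each of them and Cd14, of 300 on the chromosome. There, 6 of 159 genes (3.77%) were past 2-fold at all 3 times, the highest share of any chromosome, followed by chromosome 14. The 6 were Esco1, Arap3, Cd14, Stard4, Lipg and Iigp1, 4 lower and 2 higher. Without the members and Cd14 the count was 3 of 156 (1.92%), and 8 (5.13%) at 1.5-fold. Erdr1, Wdfy1 and Gdf3 lie on chromosomes X, 1 and 6.

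The 5 genes with a probe set on each side of each member and of Cd14 were read (for Erdr1, 5 on 1 side only). From 2 to 7 neighbours of each gene could be compared, and none of these was past 2-fold at all 3 times. Over all genes the share was 42 of 6327 (0.664%). A count of 0 among so few is near that share and is no result about the neighbours. Next to Rpgrip1, Supt16, a histone chaperone subunit, was higher in CD14-deficient cells by 1.23, 0.86 and 1.11, opposite to Rpgrip1. Beside Esco1, Abhd3 was higher by 0.55, 1.85 and 2.25, also opposite to Esco1. So were Colec12 (1.70, 0.62 and 1.04) and Usp14 (0.16, 0.44 and 1.24). Farsb near Wdfy1 (0.29, 0.34 and 1.54) and Tkt near Dcp1a (0.09, 0.06 and 1.05) were opposite too. Il3ra near Cadps was lower by 0.11, 0.11 and 1.26, the direction of Cadps. Tmco6, adjacent to Cd14, stood 0.90, 1.25 and 0.79 above wild type. Some neighbours too dim to compare at every time passed 2-fold at 1 time. Hbegf near Cd14 had -1.99 at 6 h, and Cables1 near Esco1 had 1.41 at 0 h. At 24 h Efs near Ngdn had 1.53 and Phc1 near Gdf3 had -1.05. The compared neighbours of Arap3 (5), Ngdn (3), Ghitm (3), Gdf3 (6) and Erdr1 (2) were past 2-fold at none of the 3 times.

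**Figure D4:**
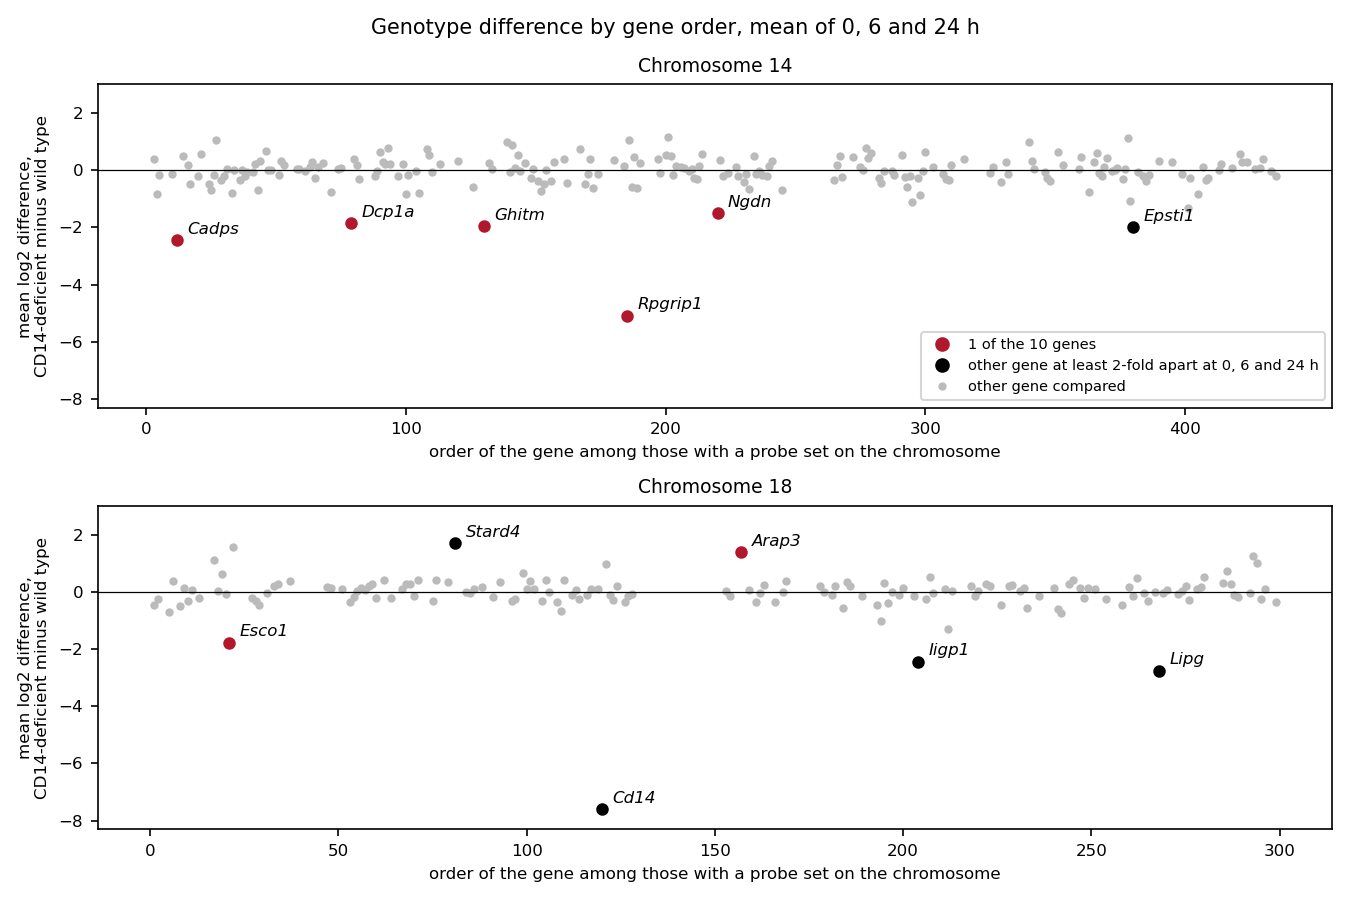
Mean of the 3 log2 differences, CD14-deficient minus wild type, for genes compared at all 3 times, by their order along chromosomes 14 (top) and 18 (bottom); red points are members, black points other genes at least 2-fold apart at 0, 6 and 24 h, and values at the floor enter as bounds. The 5 chromosome 14 members are spread among grey points near 0, and Esco1 and Arap3 lie on either side of Cd14.

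The partners of each gene's known pathway were read from 9 lists of 246 genes, 193 with a probe set and 143 bright enough at all 3 times. Of the 143, 1 was at least 2-fold lower at all 3 times and 0 were higher. The 1 was Tlr3, the endosomal receptor for double-stranded RNA whose signalling Wdfy1 assists. Tlr3 read 465, 3584 and 2813 in wild type, 3442 and 2909 with EGTA, and 213, 1539.8 and 1017 in CD14-deficient cells, differences of -1.12, -1.22 and -1.47. The level was higher after LPS in both genotypes, and at matched times the CD14-deficient array was the lower one.

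In the list of TLR4 and TRIF endosomal signalling around Wdfy1, 18 genes were compared. Past 2-fold lower were 1 at 0 h, 2 at 6 h and 1 at 24 h, and none was higher. Over all genes 3.20%, 3.08% and 6.21% were lower at 0, 6 and 24 h. With 1 or 2 genes at a time, these counts are no result about the list. Its median differences of -0.25, -0.11 and -0.30 stood beside medians of 0.02 over all genes at each time. Without normalization between arrays the last was 0.10, beside 0.43 over all genes. Wdfy2, another protein with WD40 repeats and a FYVE domain, had -0.76, -1.03 and -0.78. In the list of decapping and deadenylation around Dcp1a, 1 of 19 genes was lower and 2 were higher at 24 h, and none at 0 h or 6 h. Over all genes 6.21% were lower and 5.21% higher at 24 h. Among genes compared at all 3 times, the largest mean differences were those of Lsm2 (0.44, 0.53 and 1.27), part of the ring that binds decaying mRNA ends, and Zfp36 (0.09, -0.39 and -1.49), which marks cytokine mRNAs for decay. None of the 17 compared at all 3 times was past 2-fold each time.

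In the list of ribosome assembly factors around Ngdn, 27 genes were compared; 0 were past 2-fold at 0 h and at 6 h, and 8 were higher and 0 lower at 24 h, with medians of -0.04, 0.34 and 0.87. Imp3 (0.75, 0.62 and 1.32) and Wdr75 (-0.08, 0.40 and 1.72), both of the small-subunit processome, had the largest mean differences. At 24 h 357 of all genes (5.21%) were past 2-fold higher. Without normalization between arrays 18 of the 27 were, but there the median of all genes at 24 h was itself 0.43. The share of all genes past 2-fold without normalization was not counted, so the 18 have no background beside them. For cohesin around Esco1, 1 of 11 genes was past 2-fold, the securin gene Pttg1, lower at 0 h (-1.12, -0.42 and -0.74), and Smc3, the substrate of Esco1, had 0.57, -0.08 and 0.16.

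Around Ghitm, of 14 genes 1 was past 2-fold, Phb2, a prohibitin of the inner mitochondrial membrane, higher at 24 h (-0.14, 0.53 and 1.32), and the family member Grina had -0.93, -0.13 and -0.66. Of 16 exocytosis genes compared around Cadps, the syntaxin gene Stx2 was past 2-fold lower at 24 h (-0.16, -0.70 and -1.11), and Stxbp3 had -0.51, -0.79 and -0.86. In the TGF-beta, activin and nodal list around Gdf3, 16 genes were compared at 0 h with none past 2-fold, and 17 at 6 h and 24 h, with 3 higher at 6 h and 2 lower and 1 higher at 24 h. Among genes compared at all 3 times, the receptor genes Tgfbr1 (-0.13, 1.18 and 0.94) and Acvr1 (-0.39, -0.76 and -0.61) had the largest mean differences. Around Arap3, 0 of 26 genes were past 2-fold at 0 h, 1 lower and 3 higher of 24 at 6 h, and 1 higher of 24 at 24 h. Pik3cg, the catalytic subunit of phosphoinositide 3-kinase gamma, was higher by 0.97, 2.45 and 1.90, and Asap1 by 0.41, 1.11 and 0.05. For the photoreceptor cilium around Rpgrip1, 2 of 10 genes with a probe set, Arl3 and Ift20, were bright enough at all 3 times, and neither reached 2-fold. Over all genes 3.20%, 3.08% and 6.21% were past 2-fold lower at 0, 6 and 24 h, and 1.40%, 2.53% and 5.21% higher. Counts of 1 to 3 genes in a list are too few to be a result about it. Over the 9 lists, 1 of 143 partners apart at all 3 times is near the 42 of 6327 over all genes.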

How the data were processed

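Total RNA of 8 cultures was measured on 8 Affymetrix arrays of 22690 probe sets, 1 array per group. The authors deposited linear intensities; per the submitters' processing notes they were made with MAS5. The version, scaling, detection calls and array build are not given in the sources used here. Deposited array medians ran from 55.9 to 119, so intensities were quantile normalized over the 8 arrays, which removes any true shift of all genes. Values below the 40th percentile, 38.4, were raised to it and log2 was taken. A gene was represented by its brightest probe set (highest mean log2) and compared where the brighter of the paired arrays was above 88.2, the median of all values. Differences of at least 2-fold were counted; no p-value is given.

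The platform annotation named 20393 probe sets with 1 gene; 691 with several were left out and 1606 were not listed. By gene identifier, 20364 matched the RefSeq table of GRCm38.p6. Named genes were all members, the 10 most alike in each direction, neighbours, and 2 per partner list. The members and lists were chosen with earlier results of these data known. The procedure was tested on simulated data. Shifts were planted only in bright genes with a single probe set. They were larger than the differences of members such as Ngdn and Arap3. Recovery of dim genes, or of genes with several probe sets, was thus not tested. Python 3.11.15, NumPy 2.4.6, pandas 2.3.3 and matplotlib 3.10.9 were used. Alternatives numbered 8: no normalization, equal medians, a floor at the 20th percentile, a pseudocount of 16, 1.5-fold, 3-fold, no filter on dim genes, and the mean of a gene's probe sets.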

Additional observations from a re-analysis of the deposited data

How the results depend on the processing

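The 30 genotype differences of the brightest probe sets (10 genes, 3 times) kept their sign without normalization between arrays, with equal medians, with a floor at the 20th percentile and with a pseudocount of 16. With 1.5-fold or without the filter no member could be lost, since the former is a lower bar and the latter only adds genes. All 10 genes stayed past 2-fold at all 3 times with equal medians, with a floor at the 20th percentile and with a pseudocount of 16. Without normalization Ngdn missed it (-0.99 at 24 h), leaving 9; at 3-fold Ngdn and Arap3 missed it, leaving 8; and with the mean of a gene's probe sets Esco1, Dcp1a, Ngdn and Arap3 missed it, leaving 6. Genes apart at all 3 times numbered 102 lower and 38 higher at 1.5-fold and 13 and 1 at 3-fold, against 35 and 7. Genes with no overlap of the genotypes fell from 188 to 59 below without normalization, and from 177 to 103 above without normalization and 117 with equal medians; the cause was not tested. Without normalization the median of all genes moved to -0.78 for EGTA at 6 h, and of 19 EGTA differences of the 10 genes 12 kept their sign and 3 passed 2-fold; for the genotypes it moved to 0.00, -0.27 and 0.43 at 0, 6 and 24 h. No paired analysis was possible because the groups have 1 array each and the labels give no replicate numbers; arrays were compared at matched times. Signal over background limits the folds of dim genes, as values near the floor are imprecise.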
